A study of Mus musculus with 2 samples.

Results

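The Myb transcription factor family was described in common myeloid progenitors, bone marrow cells upstream of the granulocyte, monocyte, megakaryocyte and red cell lineages. Its 3 members, Myb, Mybl1 and Mybl2, were found by matching the Ensembl identifiers of the gene tables to mouse symbols, and all 3 were present among the 43346 Ensembl genes measured. Total RNA depleted of ribosomal RNA was sequenced in 2 libraries, both from male C57BL/6J mice aged 5 to 6 weeks and both from untreated cells as far as the labels say, starting from 100 ng of RNA and made with a ScriptSeq kit. The libraries form 1 group, replicates 1 and 2, so no conditions could be compared and no test was made. Both carry 1 donor label, so the spread between them may be partly technical. They differ in stated size range, 200 to 1000 in replicate 1 and 187 to 1606 in replicate 2, with no unit given.

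Replicate 1 held 28158803 expected counts (estimated reads per gene, which need not be whole) and replicate 2 held 84041054, 2.98 times as many, so values of low genes are more precise in replicate 2. The upper limit for a gene with 0 reads was set at 3 counts, or 0.107 and 0.0357 CPM in replicates 1 and 2, CPM being counts scaled to a library's sum, and covers counting error only. TPM, the length-corrected abundance, is relative to all entries, and nuclear protein-coding genes held 20.1% and 21.5% of it, with short structural RNAs among the rest. Of the 6 progenitor markers, 5 reached 1 TPM in both libraries, where 42.5% of nuclear protein-coding genes did. Cd34, the sialomucin of early progenitors, was the highest at 125.44 and 121.43 TPM, and Cd38, named after its values were seen, lay under 1 TPM in both. Defining genes of B cells (Cd79a, Ms4a1, Pax5 and Ebf1), T and NK cells (Cd3e, Cd8a and Ncr1) and stroma (Cdh5 and Col1a1) had 0 counts in both libraries. The summed TPM of the B cell list was 4.13 and 3.75, nearly all of it from Cd79b, that of the T and NK list was 0.15 and 0.5, and that of the stromal list was 8.95 and 13.26, led by Pecam1. The late erythroid list summed to 29.87 and 32.17 TPM, led by Hba-a2, which shares reads with a near-identical copy, and the late neutrophil list to 22.45 and 23.53 TPM, led by Camp. In pooled RNA, fewer cells that express a gene and less of its RNA per cell cannot be told apart.

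Myb family proteins bind DNA through tandem repeats of the Myb domain and activate transcription through coactivators such as p300 and CBP. Myb is needed for definitive blood formation, keeps progenitors dividing and falls in level as blood cells mature. Mybl2 (B-Myb) is made in dividing cells of nearly all kinds, where it joins the MuvB complex to switch on genes of late cell division. Mybl1 (A-Myb) is best known in the male germ line, where it drives meiotic genes, and in germinal centre B cells.

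The family was unequal in these cells. Myb stood at 84.11 TPM in replicate 1 and 106.06 TPM in replicate 2 and averaged 95.1 ± 15.5 TPM (SD, n = 2). Mybl2 stood at 4.09 and 6.00 TPM and averaged 5.04 ± 1.35 TPM. Mybl1 stood at 2.72 and 0.59 TPM and averaged 1.66 ± 1.51 TPM. The order Myb, Mybl2, Mybl1 held in both libraries, and Myb held 92.5% and 94.2% of the family's TPM in replicates 1 and 2. Among the 21461 nuclear protein-coding genes ranked by TPM, Myb came at position 319 in replicate 1 and 282 in replicate 2. Mybl2 came at positions 6104 and 5392, and Mybl1 at 7305 and 10249. Myb thus lay above 98.5% and 98.7% of these genes, Mybl2 above 71.5% and 74.8%, and Mybl1 above 65.9% and 52.1%.

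Myb stood 20.6-fold above Mybl2 in replicate 1 and 17.7-fold in replicate 2, a log2 ratio of TPM of 4.25 ± 0.15 (SD, n = 2), far more than the spread between libraries. The log2 ratio of Mybl2 over Mybl1 was 0.59 in the first library and 3.35 in the second, averaging 1.97 ± 1.95, so by gene TPM the gap between these neighbours was about as large as its spread. Myb and Mybl2 reached 1 TPM in both libraries and Mybl1 in replicate 1 alone, and 42.5% of nuclear protein-coding genes did so in both.

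In reads, the family differed little between the libraries. Myb had 18918 expected counts in replicate 1 and 61529 in replicate 2, Mybl2 had 1072 and 3433, and Mybl1 had 215 and 552. Scaled to library totals these were 672 and 732 CPM for Myb, 38.1 and 40.8 CPM for Mybl2 and 7.64 and 6.57 CPM for Mybl1. The log2 ratio of scaled counts, replicate 2 over replicate 1, was 0.13 for Myb (counting interval 0.10 to 0.15), 0.11 for Mybl2 (0.01 to 0.21) and -0.21 for Mybl1 (-0.44 to 0.02). These are 95% exact binomial intervals and cover counting error only. None of the 3 members reached a 2-fold difference, which 10.4% of the 12704 genes with a mean count of at least 50 did. That share was 29.5% with no filter on counts, so it depends on read number. It is not matched to the read numbers of the members or of the lists below, and 3 genes are too few to set against it. By TPM, however, the log2 ratio of Mybl1 was -2.20, while those of Myb and Mybl2 were 0.33 and 0.55. A 2-fold difference by TPM was reached by 13.5% of genes with such counts, and the median log2 ratio over these genes was 0.02 by scaled counts and 0.22 by TPM. The TPM ratio of Myb lay close to that median, and that of Mybl1 lay far below it, which its ratio of scaled counts did not.

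**Figure D1:**
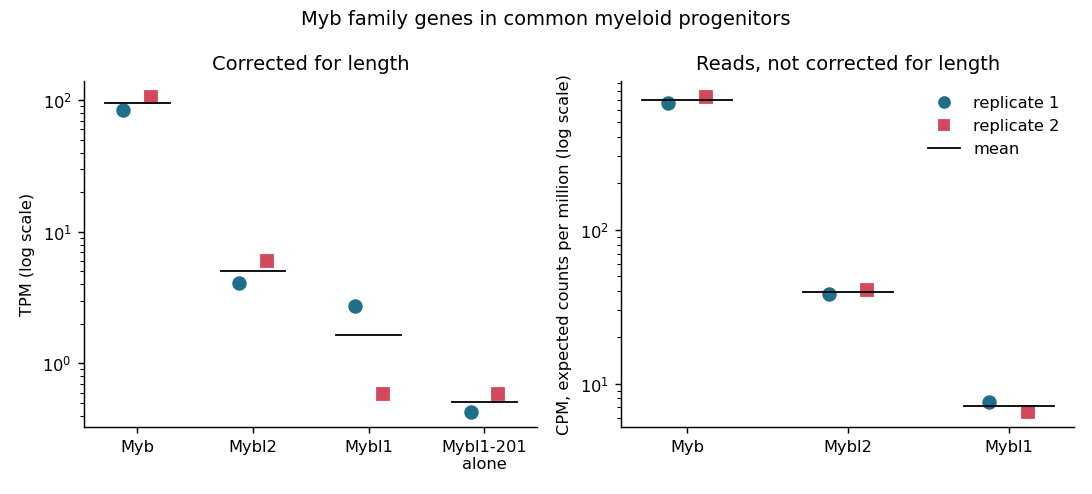
Level of each Myb family gene in both libraries, as TPM (left, log scale) and as CPM (right, log scale); points are libraries and lines their means (n = 2). Mybl1 lies at 2.72 and 0.59 TPM but at 7.64 and 6.57 CPM, and its full-length transcript alone lies at 0.43 and 0.59 TPM.

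The gap between the TPM and the reads of Mybl1 lay in 1 short transcript model. The gene (ENSMUSG00000025912.12) lies on the minus strand of chromosome 1 from 9667415 to 9700209 and is protein-coding, and 5 models of it were quantified. In replicate 2, all 552 reads were assigned to Mybl1-201, the full-length coding model of 4980 bases and 16 exons. In replicate 1, 157.78 estimated reads were assigned to that model and 57.22 to Mybl1-203, a retained intron model of 543 bases with no coding region. The posterior SD of these estimates, the quantifier's own error, was 6.23 and 5.18 reads. The other models, Mybl1-202, Mybl1-204 and Mybl1-205, had 0 counts in both libraries. After correction for fragment length in replicate 1, Mybl1-203 counted as 328.47 bases long and Mybl1-201 as 4765.36 bases. A read on Mybl1-203 was therefore worth 0.04 TPM in replicate 1 and a read on Mybl1-201 0.0027 TPM. Mybl1-203 thus took 26.6% of the reads and 84.2% of the TPM in replicate 1, and neither reads nor TPM in replicate 2.

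Mybl1-203 shares 438 of its 543 bases with exons 9 and 10 of the full-length model. The remaining 105 bases are intron that Mybl1-201 removes, GRCm38 chr1:9678506-9678610 on the minus strand. They are shown because they are the bases of the model that Mybl1-201 lacks. They stand in capitals, ahead of the first 24 bases of exon 9 in lower case, in the sense of transcription from GENCODE M21.
Mybl1-203, start: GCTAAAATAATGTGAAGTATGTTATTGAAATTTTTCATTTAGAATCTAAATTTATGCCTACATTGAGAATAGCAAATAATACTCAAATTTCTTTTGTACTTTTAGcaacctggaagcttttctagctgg
The run in capitals ends in AG, as introns do. Reads from unspliced Mybl1 RNA would also cover it, and whether such reads, or the difference in size range between the libraries, gave the 57.22 counts was not tested.

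On the full-length model alone, a view chosen after these values were seen, Mybl1 stood at 0.43 TPM in replicate 1 and 0.59 TPM in replicate 2, on average 0.51 ± 0.11 TPM. The log2 ratio of TPM between libraries was then 0.46, higher in replicate 2, against -2.20 for the gene. The median of this ratio over genes with a mean count of at least 50 was itself 0.22. In reads, Mybl1-201 stood at 5.6 and 6.57 CPM in replicates 1 and 2. Mybl2-201, the full-length Mybl2 model, stood 9.51-fold above Mybl1-201 in replicate 1 and 8.42-fold in replicate 2, so that the order of these genes exceeded the spread between libraries. A change of leading model between the libraries was common, found in 27.3% of the 8588 genes with several models and a mean count of at least 50. A leading model by TPM that was not the one with most reads was found in 15.3% of them in replicate 1 and 15.5% in replicate 2.

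**Figure D2:**
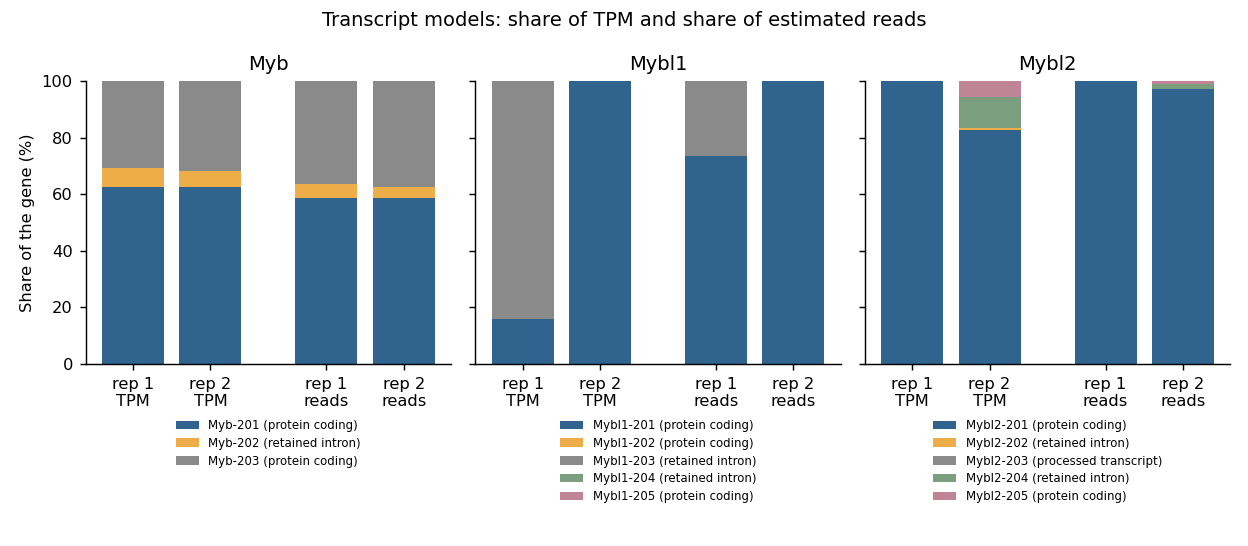
Share of each gene (percent, vertical axis) held by its transcript models in replicates 1 and 2, as share of TPM (left pair of bars) and of estimated reads (right pair). The Myb bars look alike in all 4 columns, while Mybl1-203 takes 84.2% of TPM and 26.6% of reads in replicate 1 and none in replicate 2.

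Myb gave the steadiest isoform picture. The gene (ENSMUSG00000019982.10) lies on the minus strand of chromosome 10 from 21124935 to 21160984 and is protein-coding, and 3 models were quantified. Myb-201, a coding model of 15 exons, held 62.4% of Myb TPM in replicate 1 and 62.6% in replicate 2, at 52.49 and 66.36 TPM. Myb-203, a coding model of 16 exons, held 30.9% and 32%, at 25.96 and 33.9 TPM. Myb-202, a model that runs 400 bases past a splice site and has no coding region, held 6.73% and 5.47%, at 5.66 and 5.8 TPM. The deposited isoform percentages were 62.4% and 62.57% for Myb-201, 30.86% and 31.96% for Myb-203 and 6.73% and 5.47% for Myb-202. Shares of reads were 58.8% and 58.7% for Myb-201, 36.4% and 37.4% for Myb-203 and 4.82% and 3.9% for Myb-202, so length moved them by a few points.

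The coding models of Myb differ by 1 internal exon and by their ends. Exon 10 of Myb-203, GRCm38 chr10:21144969-21145325, is 357 bases long, lies in the coding region and holds 119 whole codons, so the reading frame goes on through it. Myb-203 also has a longer last exon, 1355 bases against 1014 in Myb-201, so reads there bear on the split too. These lengths are those of M21, where Myb-201 has 3074 bases, against 2995 in the deposited table. Of the TPM of the 2 coding models, the one with the extra exon held 33.1% in replicate 1 and 33.8% in replicate 2 and averaged 33.5% ± 0.51 (SD, n = 2). Myb-201 stood 2.02-fold and 1.96-fold above Myb-203 in replicates 1 and 2. Longer Myb proteins from an added exon at this place are known from mouse and human blood cells. The junctions that set the models apart are shown in the sense of transcription, with up to 60 bases of each end of the extra exon in capitals and 24 bases of each neighbouring exon in lower case.
Myb-203, entry into the extra exon: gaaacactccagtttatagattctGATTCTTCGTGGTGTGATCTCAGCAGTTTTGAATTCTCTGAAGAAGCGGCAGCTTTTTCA
Myb-203, exit from the extra exon: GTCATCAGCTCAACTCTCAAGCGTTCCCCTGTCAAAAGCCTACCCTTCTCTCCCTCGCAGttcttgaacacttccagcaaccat
Myb-201, the same neighbours joined directly: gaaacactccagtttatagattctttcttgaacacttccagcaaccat
The first and last lines share their lower case start, and the second and last share their lower case end. In the annotation Gm26577, an antisense gene on the plus strand from 21145094 to 21154374 of chromosome 10, overlaps Myb and reaches into this exon. It had 0 counts in replicate 1 and 28 in replicate 2. Whether the counting used strand was not given in the sources used here, so reads of the pair cannot be told apart. The 28 counts stood beside 61529 for Myb in the same library. They set no limit on how many reads counted as Myb came from Gm26577.

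Mybl2 (ENSMUSG00000017861.7) lies on the plus strand of chromosome 2 from 163054687 to 163084688 and is protein-coding, with 5 models quantified. Mybl2-201, the full-length coding model of 3651 bases and 14 exons, held all 1072 reads in replicate 1 and 3335.08 of 3433 in replicate 2, at 4.09 and 4.97 TPM. In replicate 2, Mybl2-204, a retained intron model, held 54.35 reads and 0.66 TPM, Mybl2-205, an incomplete coding model, held 38.02 reads and 0.33 TPM, and Mybl2-202 held 5.54 reads and 0.04 TPM. The posterior SD of the Mybl2-205 count was 19.66 reads, so that share is uncertain. Mybl2-201 alone averaged 4.53 ± 0.62 TPM (SD, n = 2). In replicate 2 it held 97.1% of Mybl2 reads and 82.8% of its TPM, so the short models took more of the TPM than of the reads. Mybl2-203 had 0 counts in both libraries. Mybl2-204 runs 229 bases past the end of exon 7 into the intron, GRCm38 chr2:163072915-163073143. The first 60 of these intron bases are shown in capitals after the last 24 bases of the exon, beginning with the GT of a splice site that the model does not use.
Mybl2-204, past the end of the exon: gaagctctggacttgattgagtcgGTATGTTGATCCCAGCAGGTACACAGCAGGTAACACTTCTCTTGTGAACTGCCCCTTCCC
Short models with intron sequence held TPM of Mybl1 in replicate 1 and of Mybl2 in replicate 2, and the replicate without them differed between the genes.

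**Figure D3:**
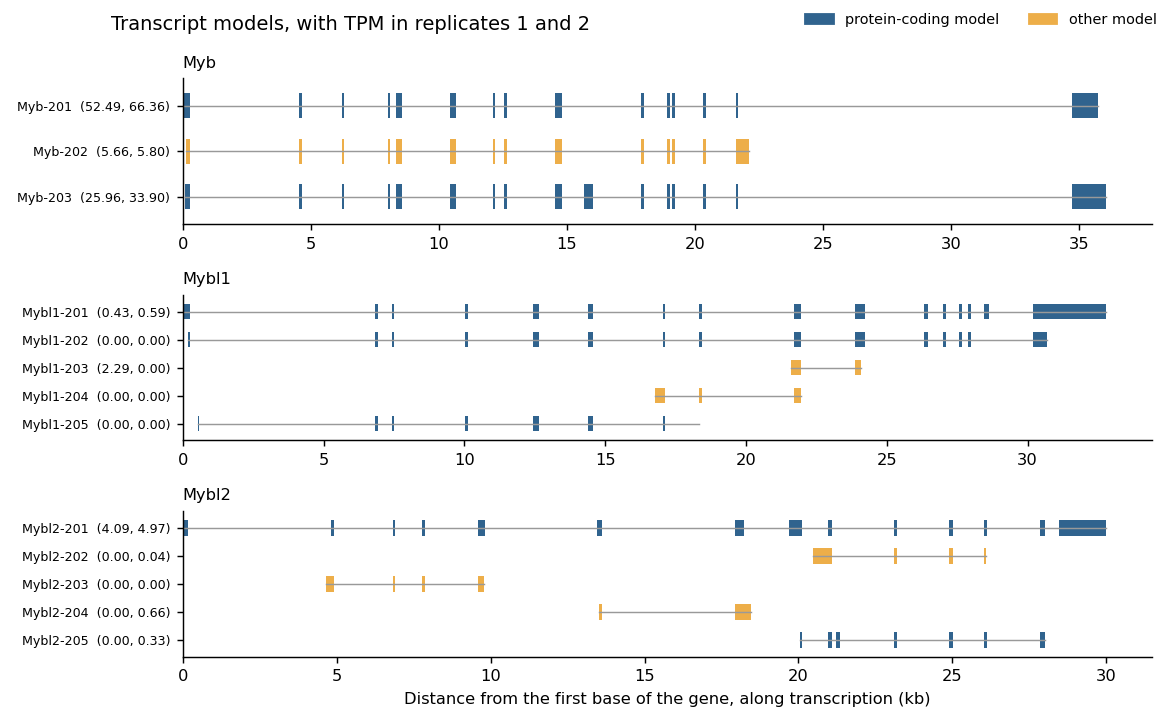
Transcript models of Myb, Mybl1 and Mybl2, drawn by distance in kb from the first base of each gene along transcription, with exons as boxes and TPM in replicates 1 and 2 in brackets. Myb-203 has the box of 357 bases that Myb-201 lacks, and the short Mybl1-203 and Mybl2-204 overlap exons of the full-length models.

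The members share sequence in exons that encode part of the DNA-binding repeats, so it was asked whether reads could be shared between them. Exons 3, 4 and 5 have the same lengths in all 3 full-length models, 72, 93 and 221 bases. In exon 3, Myb and Mybl1 shared 72.2% of bases, Myb and Mybl2 61.1%, and Mybl1 and Mybl2 52.8%. In exon 4, Myb and Mybl1 shared 76.3% of bases, Myb and Mybl2 73.1%, and Mybl1 and Mybl2 68.8%. Exon 4 of each gene is shown, with capitals at the 58 positions where all 3 are identical.
Myb: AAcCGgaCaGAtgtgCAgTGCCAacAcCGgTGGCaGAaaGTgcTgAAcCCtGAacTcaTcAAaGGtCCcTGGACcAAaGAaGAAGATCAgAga
Mybl1: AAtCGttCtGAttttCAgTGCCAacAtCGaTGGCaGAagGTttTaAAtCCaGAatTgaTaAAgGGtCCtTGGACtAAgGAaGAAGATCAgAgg
Mybl2: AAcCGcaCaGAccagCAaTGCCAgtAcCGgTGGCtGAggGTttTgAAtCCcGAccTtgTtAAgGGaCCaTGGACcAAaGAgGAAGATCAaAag
They lie at GRCm38 chr10:21152892-21152984 (minus strand), chr1:9690081-9690173 (minus strand) and chr2:163062457-163062549 (plus strand). In exon 5, the largest of these, Myb and Mybl1 shared 76.5%, Myb and Mybl2 70.6%, and Mybl1 and Mybl2 72.4% of bases. Mismatches fell throughout, and the longest exact run shared by a pair of full-length transcripts was 14 bases for Myb and Mybl1, 12 for Myb and Mybl2 and 13 for Mybl1 and Mybl2. All 6 gene counts were whole to within 0.005, as counts are when no read is divided between genes, and the same held for 89.1% of the 11185 nuclear protein-coding genes with a mean count of at least 50.

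The RefSeq promoter table held windows for Myb and Mybl2, each from 250 bases before the gene's start to 50 after it, and Mybl1 had no entry. Mybl2 is a textbook target of E2F factors, which repress it in resting cells and release it as cells enter division, and an E2F site near the start of Myb is also known. Both windows held the letters TTGGCGGGA on the printed strand, at -15 to -7 from the RefSeq start in Mybl2 and at -11 to -3 in Myb. These letters, chosen after both windows had been read and searched on both strands, occurred in 0.268% of the 32851 windows of the table. The shorter E2F core GGCGGGA, which they contain, occurred in 11.3% of windows and once in each of Myb and Mybl2. TAACNG, a Myb binding motif, occurred in 23.3% of windows, once in Mybl2 and not in the Myb window. The stretch around the longer letters is shown for each, in the sense of transcription on GRCm38.p6, with those letters in capitals.
Myb promoter: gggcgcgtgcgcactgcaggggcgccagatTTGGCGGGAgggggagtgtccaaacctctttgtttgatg
Mybl2 promoter: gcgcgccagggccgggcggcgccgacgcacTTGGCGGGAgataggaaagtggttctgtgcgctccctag
The printed stretches lie at chr10:21160957-21161025 on the minus strand and chr2:163054590-163054658 on the plus strand. The letters are a description of the sequence, and binding was not measured.

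Genes beside the members ranged from 0 to moderate levels, all below Myb. At 44506 bases downstream of Myb, Ahi1 stood at 1.51 and 1.66 TPM. On its other side, 134995 bases away across the intergenic region that holds distal Myb enhancers, Hbs1l stood at 15.49 and 16.47 TPM. Vcpip1, next to Mybl1, stood at 8.32 and 10.06 TPM, and Ift52, next to Mybl2, at 5.08 and 6.62 TPM. Vxn beside Mybl1 and Gtsf1l beside Mybl2 had 0 counts in both libraries. Hairpin genes of miR-150 and miR-15a, microRNAs known to lower Myb, and Mir7003, which lies within Mybl2, had 0 counts too. Mature microRNAs were not measured, so this says nothing of their levels.

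Genes of MuvB, the DREAM repressor and Foxm1 were present, and most of this mixed list stood above Mybl2. Of the 13 genes of MuvB, the DREAM repressor and Foxm1, 12 reached 1 TPM in each library (42.5% of nuclear protein-coding genes did), and the list's median level was 12.4 ± 1.99 TPM (SD, n = 2). The median over all nuclear protein-coding genes was 0.32 ± 0.042 TPM, against which the list medians below can be read. This list and all others were chosen with earlier results of these data known. Their counts and medians beside the shares of all genes are therefore a description and no independent support. In both libraries 9 of the 13 stood above Mybl2 and 3 below it, and most of the 9 belong to the repressor side described below. Of the MuvB core, Rbbp4, Lin9 and Lin54 stood above Mybl2 in both libraries, Lin37 in replicate 1 alone and Lin52 in neither. The MuvB core comprises Rbbp4, a histone-binding protein, at 25.06 and 30.82 TPM, and the Lin proteins. Lin9, which contacts Mybl2, stood at 8.07 and 12.26 TPM, Lin54, the DNA-binding subunit, at 8.08 and 7.02 TPM, Lin37 at 4.43 and 4.63 TPM and Lin52, which bridges the core to its partners, at 3.15 and 3.05 TPM. Foxm1, the forkhead factor that follows Mybl2 onto MuvB, stood below Mybl2 at 1.82 and 3.38 TPM.

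Genes of the repressor side of the same system spanned a wide range. The pocket protein genes Rbl1 (p107) and Rbl2 (p130) stood at 18.13 and 20.48 TPM and at 13.76 and 16.18 TPM. E2f4 stood at 10.99 and 14.33 TPM against 0.86 and 1.75 TPM for E2f5, its closest relative. Tfdp1 and Tfdp2, the dimer partners of E2F factors, stood at 33.05 and 40.55 TPM and at 13.58 and 13.8 TPM. Dyrk1a, the kinase that triggers DREAM assembly, stood at 15.32 and 16.61 TPM. No gene of the 13 differed 2-fold between the libraries by scaled counts, where 10.4% of genes with a mean count of at least 50 did.

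Genes that Mybl2 and MuvB activate in late division were transcribed throughout. All 18 of the G2/M list reached 1 TPM in each library (42.5% of nuclear protein-coding genes did). Their median level was 18.6 ± 0.85 TPM, and 17 stood above Mybl2 in both. Top2a, which untangles chromosomes, was the highest at 129.83 and 144.31 TPM and the 1 gene of this list above Myb in both libraries. Cdk1, the kinase of mitotic entry, stood at 48.66 and 47.87 TPM, Ccna2 (cyclin A2) at 44.51 and 47.62 TPM, Birc5 (survivin) at 40.19 and 42.69 TPM and Ccnb1 (cyclin B1) at 31.75 and 36.96 TPM. The lowest were Plk1, a mitotic kinase, at 6.44 and 10.39 TPM, Nek2 at 7.83 and 8.34 TPM and the phosphatase gene Cdc25c at 3.15 and 2.5 TPM, the 1 gene of the list below Mybl2 in both.

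Genes that E2F factors switch on at the start of DNA replication, the class to which Mybl2 belongs, were about as high. Of 17, 16 reached 1 TPM in each library (42.5% of nuclear protein-coding genes did). The median over all 17 was 19.9 ± 0.32 TPM, and 15 stood above Mybl2 in both. Pcna, the replication clamp, stood at 130.4 and 143.52 TPM, and the helicase subunit genes Mcm6, Mcm7, Mcm3 and Mcm5 at means of 110 ± 2.36, 108 ± 18.3, 62.9 ± 7.17 and 39.4 ± 8.7 TPM (SD, n = 2 each). Pcna, Mcm6 and Mcm7 stood above Myb in both libraries. The lowest were the activator genes E2f1 at 2.3 and 2.92 TPM and E2f2 at 0.9 and 1.5 TPM. No G2/M or E2F-driven gene of these lists differed 2-fold between the libraries by scaled counts. Of all genes with a mean count of at least 50, 10.4% did. That share was 29.5% with no filter on counts, so it depends on read number. These genes lie well above the filter (E2f2 had 309 and 1323 counts), so the 10.4% is not matched to them.

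**Figure D4:**
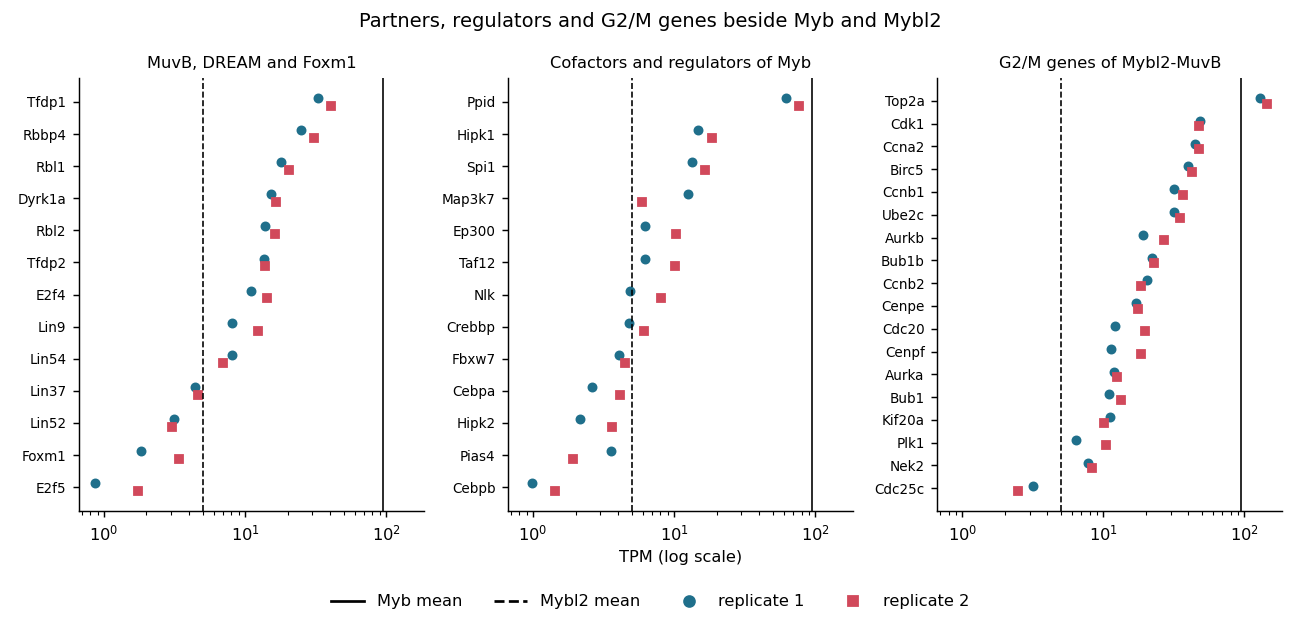
TPM (log scale, horizontal axis) in replicates 1 and 2 of genes of MuvB, DREAM and Foxm1 (left), 13 of the 14 cofactors and regulators of Myb (middle) and G2/M genes (right), with the mean TPM of Myb (solid line) and Mybl2 (dashed line). Top2a alone passes the Myb line, and 17 of 18 G2/M genes lie above Mybl2 in both libraries.

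Among cofactors and regulators of Myb, 13 of 14 reached 1 TPM in each library (42.5% of nuclear protein-coding genes did). The median over all 14 was 6.33 ± 1.1 TPM, and 8 stood above Mybl2 but 0 above Myb in both. The coactivator genes Ep300 and Crebbp, whose proteins bind the Myb activation domain and acetylate histones, stood at 6.22 and 10.32 TPM and at 4.8 and 6.1 TPM. Taf12, a subunit of the general factor TFIID that acts with Myb in leukaemia cells, stood at 6.22 and 10.1 TPM. Partner factors at myeloid promoters ranged from Spi1 (PU.1) at 13.44 and 16.49 TPM through Cebpa at 2.6 and 4.12 TPM to Cebpb at 0.98 and 1.44 TPM.

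Genes whose proteins modify or restrain Myb were detected as well. Ppid, the cyclophilin that binds the Myb regulatory domain, had the highest mean of the list, at 62.32 and 77.25 TPM in replicates 1 and 2. Pias4, a SUMO ligase, stood at 3.56 and 1.91 TPM. Of the kinases that act on Myb turnover, Map3k7 (TAK1) stood at 12.47 and 5.96 TPM, Hipk2 at 2.14 and 3.63 TPM and Nlk at 4.88 and 8.11 TPM, with the related Hipk1 at 14.74 and 18.68 TPM. Fbxw7, the ubiquitin ligase subunit that recognises phosphorylated Myb, stood at 4.06 and 4.51 TPM. None differed 2-fold between the libraries by scaled counts (10.4% of genes with a mean count of at least 50 did), although Map3k7 did by TPM.

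Genes known as Myb targets in blood cells ranged from among the highest levels to near 0. Of 14, 8 reached 1 TPM in each library, beside 42.5% of nuclear protein-coding genes. The median over all 14 was 8.62 ± 0.83 TPM. It fell in a gap of the list, as the genes next to it averaged 13.5 and 3.72 TPM. The 5 highest were Cd34 at 125.44 and 121.43 TPM, the methionine adenosyltransferase gene Mat2a at 38.46 and 44.82 TPM, the receptor genes Kit at 33.45 and 39.77 TPM and Flt3 at 20.97 and 24.93 TPM, and Myc at 17.8 and 24.03 TPM. Cd34 alone of the list stood above Myb in both libraries. The lowest were Cd4 at 0.15 and 0.16 TPM and Gata3 at 0.05 and 0.24 TPM, which are T cell genes, and Anpep (CD13) at 0 and 0.11 TPM. Of the 13 with a mean count of at least 50, 1 was at least 2-fold higher in replicate 2 by scaled counts (6.75% of genes were), Gata3 at 12 and 143 counts, and 2 were at least 2-fold lower (3.69% of genes were). The lower pair, named after their values were seen, were the lymphoid genes Il7r at 218 and 76 counts and Rag2 at 189 and 156 counts.

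The germ line targets of Mybl1 were silent or nearly so. Of 8 genes that Mybl1 drives in spermatocytes, 7 had 0 counts in both libraries, among them Piwil1, which binds piRNAs, Mael, Tdrd1, Tdrd6, the helicase gene Mov10l1, Ccna1 (cyclin A1) and Ldhc. The remaining gene, Tdrd5, had 0 and 28 counts, or 0 and 0.04 TPM. Of the 8, 0 reached 1 TPM in both libraries, where 42.5% of nuclear protein-coding genes did. The share of all genes with 0 counts in both libraries is not given here, so the 7 cannot be set against it. Mybl1 itself, at 215 and 552 counts, was above the limit that a count of 0 allows in both libraries.

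Other genes with Myb-like repeats, which are not members of the family, were transcribed at modest levels. Of 8, 7 reached 1 TPM in each library (42.5% of nuclear protein-coding genes did). The median over all 8 was 9.74 ± 0.21 TPM, and 6 stood above Mybl2 in both. Cdc5l, a spliceosome component, was the highest at 28.89 and 28.31 TPM. Dmtf1, a cyclin D-binding factor, Mysm1, a histone deubiquitinase needed for blood formation, the telomere protein genes Terf1 and Terf2, and Snapc4, of the small nuclear RNA promoter complex, averaged 11.2 ± 1.13, 11.2 ± 0.91, 9.85 ± 0.021, 7.56 ± 0.98 and 9.65 ± 0.4 TPM (SD, n = 2 each). Ttf1, which terminates ribosomal RNA transcription, stood at 3.68 and 4.87 TPM, and Mypop had 0 and 41 counts. Myb stood above each of the 8 in both libraries.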

How the data were processed

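Gene and transcript tables were deposited by the authors for each library, and the accompanying readme names mm10 and GENCODE M4. Aligner and quantifier are not given in the sources used here. Their expected counts are estimated reads per the file headers. Deposited TPM and its posterior mean are corrected for effective length over all entries of a table. FPKM and the isoform percent of every transcript were deposited too. Numeric and spike-in entries, with 0 and 83 counts in replicates 1 and 2, stayed out of library sizes.

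Symbols, models and coordinates were looked up by Ensembl ID in GENCODE M21 (GRCm38, which is mm10): 42462 of 43346 genes matched, and 13 of 13 member transcripts, 11 with equal length. M21 lists 6 Myb models, of which 3 were quantified. Counts were rounded and scaled by TMM (edgeR 4.0.16, R 4.3.3) with a prior count of 0.5. DESeq2 1.42.0 size factors were an alternative. Other steps ran in Python 3.11.15 (scipy 1.17.1, numpy 2.4.6, pandas 2.3.3; matplotlib 3.10.9 for figures). The ratio step was tested on simulated data. Depth was 28158803 and 84041054 expected counts. Intervals cover counting error only. The members and all lists were chosen with earlier results of these data known. The rule allowed naming all genes of the partner, cofactor, repeat and germ line lists and the 5 highest and 3 lowest of the target lists. Of the marker lists, the highest gene and those at 0 counts could be named. Some genes the rule allowed are not reported here.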

Additional observations from a re-analysis of the deposited data

How the results depend on the processing

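No paired analysis was possible because there is 1 group. Of 135 alternative values of 26 results, 91 moved by no more than the spread between libraries (a counting interval for ratios between libraries, 1.5 times for shares of genes), and 44 moved further. Of these 44, 1 turned its sign, the log2 ratio of Mybl1 between the libraries given below, whose counting interval included 0. Of the 91, 21 came from leaving out replicate 1 and 21 from leaving out replicate 2. With 2 libraries, leaving 1 out cannot move a mean by more than their SD, so these values say nothing of robustness. The leading model's share of Mybl1 TPM was 57.9% with an SD of 59.5, so no alternative could move it further than that. Nor is a value within the SD a sign of robustness for the Mybl1 level, at 1.66 ± 1.51 TPM. FPKM and TPM rescaled to nuclear protein-coding genes are other units and moved nearly all levels. The order Myb, Mybl2, Mybl1 held in each, as it must, because both units multiply all TPM of a library by 1 factor. For the same reason FPKM could not move the ratios of member pairs, beyond rounding, or medians of 0. In FPKM the means were 237, 12.5 and 4.37 for Myb, Mybl2 and Mybl1, and rescaled they were 456, 24.1 and 8.14. List medians in FPKM and rescaled were 30.9 and 59.4 for MuvB and DREAM, 15.7 and 30.3 for cofactors, 21.5 and 41.4 for blood targets, 46.7 and 89.5 for G2/M, 50.06 and 95.9 for E2F-driven, 24.5 and 46.9 for Myb-like repeat, 67.4 and 129 for progenitor marker, 5.86 and 11.2 for late erythroid, 2.01 and 3.83 for late neutrophil and 0.055 and 0.105 for stromal genes; the T and NK cell median was 0.0232 rescaled. With posterior mean TPM the medians of Myb-like repeat, germ line, B cell, stromal and T and NK genes were 10.04, 0.025, 0.045, 0.195 and 0.015 TPM. Counting genes with 10 or more reads in each library, those of blood target, B cell, late neutrophil, stromal and T and NK genes were 13.5, 3.9, 4.08, 5.53 and 0.155 TPM; no germ line gene was left.

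With a pseudocount of 1 the log2 ratio of Myb over Mybl2 was 4.00. By TPM the log2 ratios of replicate 2 over replicate 1 were 0.33, -2.20 and 0.55 for Myb, Mybl1 and Mybl2, and 0.46 for Mybl1-201 alone. That alternative was chosen after seeing the data and turned the direction from -0.21, which is the ratio of the whole gene by scaled counts. The units differ, as the median ratio over genes with a mean count of at least 50 was 0.22 by TPM and 0.02 by scaled counts. In reads, Mybl1-201 stood at 5.6 and 6.57 CPM in replicates 1 and 2. The share of genes past 2-fold was 29.5% with no filter on counts. Myb-201 held 58.7% of Myb reads. With each library left out in turn, the levels ranged from 84.11 to 106.06 TPM for Myb, 0.59 to 2.72 TPM for Mybl1 and 4.09 to 6 TPM for Mybl2, and the log2 ratio of Mybl2 over Mybl1 from 0.59 to 3.35. The TPM of Mybl1 in replicate 1 rested on 57.22 reads assigned to a short model.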
